A study of Mus with 3 samples.

Results

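Interferon-stimulated genes (ISGs) were followed as a named set of 41 genes in single cells from MC38 colon tumors of mice with altered T cell expression of RARα, a nuclear receptor for retinoic acid that is encoded by Rara. The set was fixed by name, with earlier results of these data known. It was read as the sum of its unique molecular identifiers (UMIs, 1 per captured RNA molecule) per cell and gene by gene. Counts were found for 39 of the 41 genes. Mx1 and Mx2 were not analysed here.

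ISGs are the transcriptional answer of a cell to interferons. Type I and type III interferons act through receptor-bound kinases on a complex that includes STAT2 and IRF9 and binds interferon-stimulated response elements. Interferon-γ, made by activated T cells and NK cells, acts on gamma-activated sites and raises IRF1 and the interferon-induced GTPases most strongly. In tumors, these programs are known for antigen presentation, chemokine release and restraint of viral replication, and most nucleated cells can mount them.

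The 3 groups were WT mice, RARα-KO mice (dLck-Cre × Rara L/L) and RARα-TG mice (CD2-Rara), all labelled C57BL/6 and all bearing subcutaneous MC38 tumors, a mouse colon adenocarcinoma line, until day 16. The distal Lck promoter drives Cre in T cells, so that the deletion is a T cell deletion, and CD2 regulatory sequence drives Rara in T cells. C57BL/6 and dLck-Cre mice served as WT controls in the study, but which of them were used here and the number of mice pooled were not given in the available sources. Most experiments of the study used age-matched mice a few weeks old of both sexes. The study also states that both sexes served at first and that its later work was mostly on males. The age in this experiment was not stated. A barcoded antibody hashtag marked each genotype, 30000 sorted T cells were mixed with 10000 unsorted cells of the tumor, and all genotypes went through 1 droplet library with a 5 prime kit. Because each genotype was 1 sample, differences between genotypes had no replicate check and no p-value, and the mouse, the tumor, the hashtag and the genotype could not be told apart. The labels also name a spleen origin and in vitro activation, which are no part of the tumor protocol.

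After hashtag demultiplexing, 4925 single cells remained, with 1927 from WT, 2103 from RARα-KO and 895 from RARα-TG tumors. Rara was higher in the RARα-TG T cells, at 190.8 CPM (UMIs of the gene per 1000000 UMIs) in CD8 T cells against 85.6 in WT. In RARα-KO CD8 T cells it was 78.6 CPM. The study states that T cells of this line still make a Rara transcript from which an exon is missing. Whether the 5′ counts cover the deleted part of the gene was not examined. Clusters that expressed macrophage markers, dendritic cell markers or mesenchymal genes were named macrophage-like, dendritic-cell-like, and MC38- or stromal-like, shortened below. In the last class the epithelial marker Krt18 had 0 UMIs and Krt8 at most 1 UMI per genotype, while Sparc was between 1806.2 and 2645.0 CPM, so tumor cells and stromal cells could not be told apart. Of the WT cells, 22 of 77 macrophages, 72 of 270 MC38 or stromal cells and 545 of 840 CD8 T cells had 80% or more of their hashtag counts from 1 hashtag, against all but 1 of the RARα-KO macrophages. Class sums, role groups and member counts were computed with and without this limit, the last of these chosen after seeing the data, and the per-cell shares, pathway lists and comparisons between T cell classes were computed without it.

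The description rests on 6 classes per genotype, namely CD8 T cells, Foxp3- CD4 T cells, Foxp3+ CD4 T cells (Tregs), macrophages, dendritic cells and MC38 or stromal cells. Foxp3- means 0 Foxp3 UMIs in the cell, so Tregs whose Foxp3 RNA was not captured may be counted there. WT, RARα-KO and RARα-TG had 840, 1172 and 113 CD8 T cells, and 96, 166 and 112 Foxp3- CD4 T cells. They had 120, 79 and 150 Tregs, 77, 127 and 35 macrophages, 21, 26 and 4 dendritic cells, and 270, 126 and 19 MC38 or stromal cells. Levels are CPM of all UMIs in the class, with exact Poisson 95% intervals. Genotypes are compared by the log2 of the ratio of their CPM, with an exact binomial 95% interval. Both intervals cover counting error only. A CPM is a share of the RNA of the class, so median depths and UMIs per cell are given beside it where they bear on a result.

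In WT tumors the member sum was lowest in CD8 T cells, at 1428.2 CPM (1397.1 to 1459.9), followed by Foxp3- CD4 T cells at 2118.5. Dendritic cells had 3257.0, Tregs 3817.3, MC38 or stromal cells 4002.8 and macrophages 5114.8 CPM. The sum in WT macrophages was thus 3.58 times that of WT CD8 T cells and the sum in WT Tregs 2.67 times. In RARα-KO tumors the order of the lowest classes was kept, but MC38 or stromal cells ranked first, at 8662.7 CPM and 4.60 times the CD8 level. The counting intervals of WT Tregs (3662.5 to 3976.9) and WT MC38 or stromal cells (3960.8 to 4045.3) overlapped, as did those of RARα-KO dendritic cells and Tregs. In RARα-TG tumors the classes lay closer together, from 1072.7 CPM in macrophages to 2055.6 in Tregs, and macrophages had 0.568 times the CD8 level. Barcodes that held no cell, a measure of free RNA, had 2454.8 CPM of members (2271.5 to 2649.0). This was above the level of CD8 T cells of each genotype, of WT Foxp3- CD4 T cells and of every RARα-TG class. Irf1 was at 340.6, Bst2 at 311.0, Isg15 at 270.3 and Igtp at 255.5 CPM in these barcodes. Their part in the levels of the cells was not tested.

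**Figure D1:**
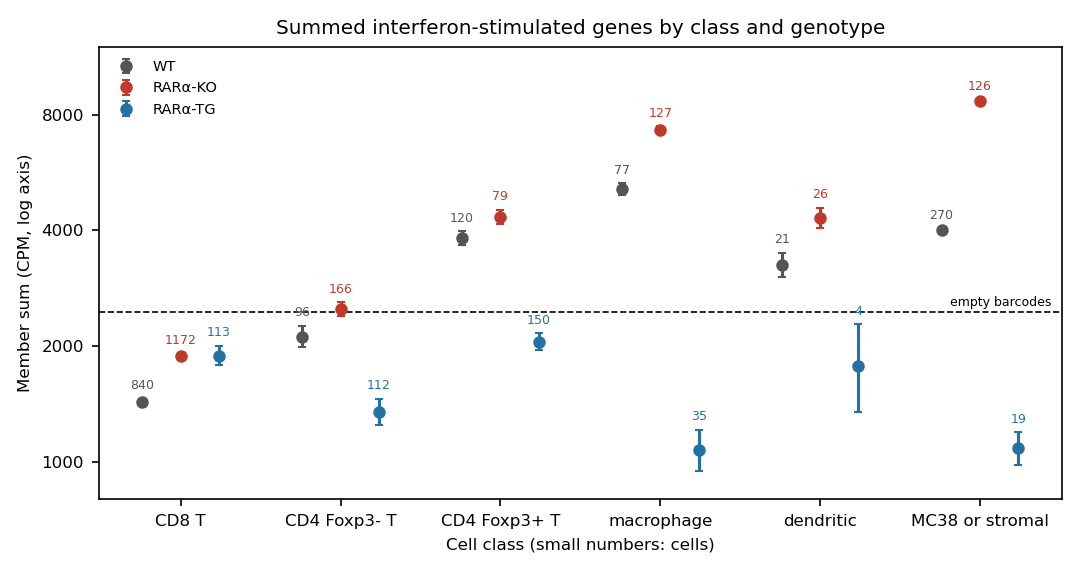
Summed UMIs of the 39 ISGs in CPM (log axis) in 6 cell classes of WT, RARα-KO and RARα-TG tumors, with exact Poisson 95% intervals, the number of cells beside each point and the level of barcodes without cells as a dashed line. RARα-KO lies above WT in each class, and RARα-TG lies below WT in each class other than CD8 T cells.

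The RARα-KO sum was above WT in each of the 6 classes. The largest difference was in MC38 or stromal cells, with 34569 UMIs at 4002.8 CPM in WT and 36600 UMIs at 8662.7 CPM in RARα-KO, a 2.16-fold higher level (log2 1.11, 1.09 to 1.14). Macrophages went from 5114.8 to 7292.5 CPM (log2 0.51, 0.45 to 0.57). CD8 T cells had 1428.2 and 1883.1 CPM (log2 0.40, 0.36 to 0.44). The CD4 T cells differed least, with a log2 ratio of 0.24 (0.12 to 0.35) in Foxp3- cells and 0.19 (0.10 to 0.27) in Tregs. The 26 dendritic cells of RARα-KO had 4309.6 CPM against 3257.0 in 21 WT cells. Restricted to cells with 80% or more of 1 hashtag, the WT level was 3307.8 CPM in macrophages and 5377.6 in MC38 or stromal cells, and the log2 ratios became 1.14 and 0.69. In Foxp3- CD4 T cells the ratio became 0.59 and in dendritic cells -0.04.

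The RARα-TG sum was below WT in 5 classes and above it in CD8 T cells. In macrophages it was 1072.7 CPM from 264 UMIs, against 5114.8 from 2947 UMIs in WT (log2 -2.25, -2.44 to -2.07). A RARα-TG macrophage held 7.54 member UMIs on average and a WT macrophage 38.3, at median depths of 6630 and 6712 UMIs. MC38 or stromal cells had 1083.6 CPM in 19 RARα-TG cells (log2 -1.89), and Tregs had 2055.6 CPM (log2 -0.89, -0.99 to -0.80). Foxp3- CD4 T cells had 1350.7 CPM (log2 -0.65, -0.80 to -0.50) and 4 dendritic cells 1771.3 CPM. In CD8 T cells the level was 1890.0 CPM (1781.8 to 2003.0), next to the 1883.1 of RARα-KO. Among cells with 80% or more of 1 hashtag, the RARα-TG ratios were -1.53 in macrophages, -2.24 in MC38 or stromal cells and -0.30 in Foxp3- CD4 T cells. The limit kept only 8 of the 19 RARα-TG MC38 or stromal cells, with 205 member UMIs.

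Markers of other cells moved with some of these sums. T cell markers made up 187.4, 734.0 and 142.2 CPM of the WT, RARα-KO and RARα-TG macrophages, with 10 of 10 markers found in WT and RARα-KO. Macrophage markers made up 13846.5, 8409.4 and 17422.9 CPM, and Lyz2, a lysozyme gene, 7157.5, 3017.1 and 10474.9 CPM. In macrophages with few markers of another type, 74 of 77 in WT and 112 of 127 in RARα-KO, the log2 ratio was 0.53. In MC38 or stromal cells, T cell markers were 23.3, 84.3 and 248.2 CPM, and the ratios among cells with few of them were 1.14 for RARα-KO and -3.44 for RARα-TG.

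At the level of single cells, each cell was thinned to 1000 UMIs so that depth was equal. A median RARα-KO MC38 or stromal cell had 7 member UMIs per 1000, a WT cell 2 and a RARα-TG cell 0. The share of cells with 5 or more was 73.8% in RARα-KO, 33.0% in WT and 5.26% in RARα-TG, and only 1.59% of the RARα-KO cells had none, against 23.7% in WT. Over all cells of the class, without the 80% hashtag limit, the difference was therefore spread over most cells. Only 72 of the 270 WT cells passed that limit, with a sum of 5377.6 CPM against 4002.8 over all of them. Shares of cells within the limit were not computed. Macrophages had medians of 4, 6 and 0 UMIs in WT, RARα-KO and RARα-TG, and 57.1% of RARα-TG macrophages had no member UMI. Of the Tregs, 35.3%, 40.5% and 10.0% had 5 or more. CD8 T cells had a median of 1 in every genotype, and 7.98%, 13.6% and 12.6% of them had 5 or more. The 10% of WT CD8 T cells with the most member UMIs held 48.4% of them, against 39.9% in RARα-KO, so the members were unevenly spread among CTLs. Before thinning, the median member UMIs per cell were 6, 9 and 6 in CD8 T cells and 68, 216.5 and 7 in MC38 or stromal cells, with median depths of 30129.5, 30739 and 19337 UMIs in the last class.

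**Figure D2:**
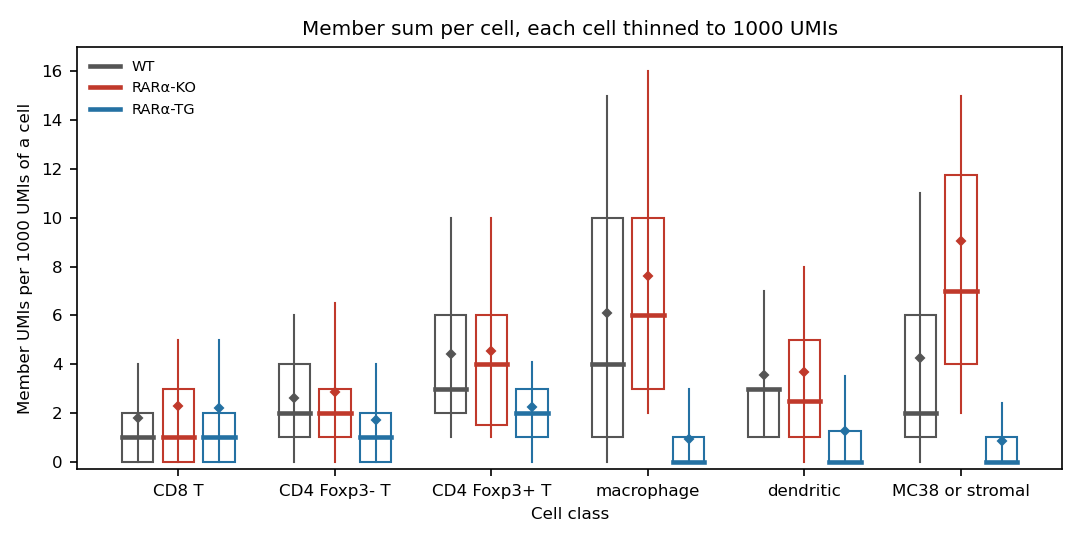
Member UMIs per cell after thinning each cell to 1000 UMIs, by class and genotype, with boxes for the quartiles, a thick line for the median, a diamond for the mean and whiskers from the 10th to the 90th percentile. The RARα-KO MC38 or stromal cells have a median of 7 UMIs and the WT cells of 2, while CD8 T cells have a median of 1 in each genotype.

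The members were then read by role, starting with the transcription factors. Irf1, the factor that interferon-γ strongly induces, was at 138.1, 179.3 and 151.0 CPM in CD8 T cells of WT, RARα-KO and RARα-TG and at 416.9, 518.0 and 255.9 CPM in Tregs. In macrophages it was at 584.9, 704.0 and 28.4 CPM, and 17.1% of RARα-TG macrophages had an Irf1 UMI against 70.1% in WT. MC38 or stromal cells had 384.9, 533.3 and 112.1 CPM. Irf1 thus had a log2 ratio of -4.36 in RARα-TG macrophages and of -0.70 in RARα-TG Tregs. Irf7, which amplifies type I interferon production, was at 54.3, 61.9 and 109.5 CPM in CD8 T cells, where the RARα-TG ratio was 1.01 (0.61 to 1.40). In macrophages it was at 208.3, 407.6 and 28.4 CPM and in MC38 or stromal cells at 64.5, 148.2 and 18.7 CPM. Stat2 and Irf9 encode parts of the complex that answers type I interferon. In Tregs, Stat2 was at 45.0, 14.3 and 20.4 CPM, lower than WT in both other genotypes, and in Foxp3- CD4 T cells Irf9 was at 115.9, 73.1 and 56.8 CPM, again lower in both. In CD8 T cells Stat2 had 18.8, 17.7 and 33.2 CPM and Irf9 50.9, 61.5 and 56.4 CPM. In macrophages Stat2 had 72.9, 59.9 and 8.13 CPM, and in MC38 or stromal cells 31.4, 63.0 and 16.0 CPM.

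Isg15, a ubiquitin-like protein that is attached to other proteins after interferon exposure, did not follow the sum in RARα-KO CD8 T cells. It was at 154.8, 150.3 and 197.5 CPM in CD8 T cells, with a RARα-KO log2 ratio of -0.04 (-0.17 to 0.08). Its RARα-TG ratio there was 0.35, not called, where that of the sum was 0.40. In macrophages Isg15 was at 768.9, 1810.3 and 369.7 CPM, and 64.9%, 85.0% and 42.9% of macrophages had an Isg15 UMI. Of the 91 Isg15 UMIs in RARα-TG macrophages, 57 came from 1 cell. MC38 or stromal cells had 268.1, 722.1 and 61.4 CPM, with a UMI in 67.0%, 92.1% and 47.4% of cells. Usp18, the protease that removes ISG15, was at 15.6, 53.0 and 8.01 CPM in the same class and at 46.9, 22.5 and 8.13 CPM in macrophages. Herc6, a ligase of the ISG15 pathway in mice, had RARα-KO and RARα-TG log2 ratios of -0.63 and -0.54 in Tregs, neither of them past the limit for a call.

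The IFIT family binds viral RNA with unusual 5′ ends. Its 5 members lie side by side on chromosome 19 (34550550 to 34662981, GRCm38), and as they share sequence, and Ifit1bl1 overlaps Ifit1 and Ifit3b, counts of single members are uncertain. Ifit1 and Ifit3, the members with the most UMIs, were at 44.1, 147.7 and 0 CPM and at 76.7, 235.3 and 2.67 CPM in WT, RARα-KO and RARα-TG MC38 or stromal cells. The family there had a RARα-KO log2 ratio of 1.61. CD8 T cells went the other way, with Ifit3 at 24.8, 14.98 and 34.9 CPM, Ifit1 at 27.2, 21.4 and 23.2 CPM and a family ratio of -0.33 in RARα-KO. Without the cell with the most IFIT UMIs in each genotype that ratio was -0.18 (-0.37 to 0.02), and more RARα-KO than WT CTLs had an Ifit3 UMI (6.83% against 4.41%) or an Ifit1 UMI (6.91% against 5.24%). In macrophages the family had 206, 112 and 0 UMIs, and its RARα-KO ratio of -1.58 rested on 1 WT cell. That cell held 147 of the 206 UMIs, and 43 of the 44 of Ifit3b. Without the top cells, an alternative chosen after seeing the data, the macrophage ratio was -0.05 (-0.54 to 0.45), and among cells with 80% or more of 1 hashtag it was 0.79. The share of macrophages with an IFIT UMI was 16.9% in WT and 26.8% in RARα-KO. In RARα-TG Tregs, 19 of the 20 IFIT UMIs came from 1 cell.

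The OAS family senses double-stranded RNA, and most of its members make the second messenger that activates RNase L. It was sparse in T cells. In CD8 T cells the family was at 13.9, 21.1 and 64.7 CPM, a RARα-TG log2 ratio of 2.22. Oas1a was at 4.29, 10.8 and 19.9 CPM and Oasl2 at 2.32, 0.619 and 18.2 CPM, the latter from 13, 5 and 11 UMIs. Both were therefore read from few molecules in the 113 RARα-TG CTLs. In macrophages Oas1a was at 88.5, 111.3 and 56.9 CPM and Oasl2 at 116.3, 145.5 and 12.2 CPM. In MC38 or stromal cells Oasl2 was at 71.9, 144.9 and 29.4 CPM and Oas1a at 26.5, 54.7 and 13.3 CPM.

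The nucleic acid sensors include Zbp1, which detects Z-form RNA and DNA and can start necroptosis, and Eif2ak2, which encodes the kinase PKR. Zbp1 was at 73.4, 118.9 and 104.5 CPM in CD8 T cells and at 170.1, 245.7 and 69.4 CPM in Tregs. The sensors as a group had RARα-KO ratios of 0.42 in CD8 T cells, 0.41 in Tregs, 0.33 in macrophages and 0.91 in MC38 or stromal cells. Their RARα-TG ratios were 0.26, -1.27 and -1.67 in the first 3 of these. Eif2ak2 was called lower only in RARα-TG Tregs among the T cell comparisons (log2 -1.29). In RARα-TG CD8 T cells it had a ratio of -0.77 and Ifih1, the sensor of long double-stranded RNA, -1.57, and neither passed the limit.

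Among the antiviral effectors, Bst2 (tetherin, which holds virions at the cell surface) had more UMIs than any other member, 18.6% of all member UMIs. It was at 148.9, 175.3 and 224.0 CPM in CD8 T cells, 190.1, 286.6 and 89.9 CPM in Tregs and 312.4, 463.3 and 154.4 CPM in macrophages. MC38 or stromal cells had 1016.3, 2289.0 and 363.0 CPM, and 98.5%, 99.2% and 78.9% of them had a Bst2 UMI. Xaf1, a partner of the apoptosis inhibitor XIAP, was at 55.5, 108.1 and 52.8 CPM in macrophages and at 52.3, 52.6 and 21.0 CPM in Foxp3- CD4 T cells. Rsad2 (viperin, which makes a chain-terminating nucleotide) was at 26.3, 95.2 and 0 CPM in MC38 or stromal cells and at 185.7, 255.7 and 0 CPM in macrophages. Among members with 20 or more UMIs, Rtp4 had the lowest RARα-TG ratio of Tregs, at 91.7, 63.5 and 10.9 CPM.

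The Ifi200 family, whose members bind DNA, lies on chromosome 1 (173468485 to 173942866) and shares sequence among its members. Ifi209 was at 47.5, 93.9 and 86.3 CPM and Ifi203 at 60.4, 53.2 and 96.2 CPM in CD8 T cells. Ifi214 was at 18.04, 39.1 and 9.96 CPM. In RARα-KO, Ifi209 (log2 0.98) and Ifi214 (1.12) were called higher and Ifi203 (-0.18) was not called. In RARα-TG, Ifi209 (0.86) and Ifi203 (0.67) were called higher and Ifi214 (-0.86) was not called. The unlike orders of the genotypes within the family thus rest partly on differences that were not called. In macrophages Ifi203 was at 192.6, 135.9 and 28.4 CPM, and the family had a RARα-KO log2 ratio of -0.03 and a RARα-TG ratio of -2.97.

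The interferon-induced GTPases, which coat and disrupt vacuoles of intracellular pathogens, differed more between RARα-KO and WT CD8 T cells than any other role group did. The 5 GTPases together were at 288.4, 513.7 and 318.6 CPM there, with a RARα-KO log2 ratio of 0.83 and a RARα-TG ratio of 0.14 (-0.08 to 0.36). Gbp2 was at 55.4, 110.9 and 86.3 CPM and Igtp at 100.2, 177.3 and 119.5 CPM, with an Igtp UMI in 32.0%, 45.4% and 31.9% of CTLs. Tregs had more GTPase RNA than the other T cells, at 1582.6, 1877.4 and 891.7 CPM, and GTPases made up 41.5% of their member UMIs in WT against 20.2% in WT CD8 T cells. Iigp1, an immunity-related GTPase, was at 210.1, 315.3 and 28.6 CPM in Tregs, with a UMI in 41.7%, 50.6% and 6.67% of cells. The macrophage GTPases were at 1169.8, 1662.6 and 93.5 CPM and those of MC38 or stromal cells at 1412.7, 3070.1 and 256.2 CPM. Among cells with 80% or more of 1 hashtag, the RARα-KO log2 ratio of the GTPases was 0.49 in MC38 or stromal cells, where it was 1.12 over all cells, and 1.31 in macrophages, where it was 0.51. Gbp2 was detected in 70.0%, 95.2% and 10.5% of all MC38 or stromal cells. Gbp2, Gbp3 and Gbp7 lie together on chromosome 3 (142530336 to 142638008) and are alike in sequence, so reads may be shared among them.

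Counts of members past a limit were set against all genes. A gene was counted as higher or lower where it had 20 or more UMIs over both genotypes, its level differed 1.5-fold or more and the 95% counting interval left out no difference, in classes with 30 or more cells in both genotypes. In CD8 T cells, 35 members passed the UMI minimum for RARα-KO against WT, and 11 were higher and 2 lower, where 4.81% of all genes were higher and 4.84% lower. The highest ratios were those of Oas1a (1.33), Iigp1 (1.15), Ifi214 (1.12) and Gbp2 (1.003), and the lowest those of Ifit3 (-0.73), Ifit3b (-0.69), Ifit1 (-0.34) and Ifi203 (-0.18). The median over members was 0.23, against 0.01 over all genes. Without the top cell of each gene the counts were 12 higher and 0 lower, as Ifit3 and Ifit3b lost the call (all genes 5.14% and 4.66%). Within the hashtag limit they were 11 and 1 (5.35% and 4.81%). For RARα-TG, 36 members passed, 11 were higher and 0 lower (all genes 7.62% and 6.46%), with Oasl2 (2.98), Oas1a (2.22), Oas3 (1.77) and Ifit2 (1.39) at the top and Ifih1 (-1.57), Ifit3b (-1.03), Ifi214 (-0.86) and Eif2ak2 (-0.77) at the bottom. Without the top cell of each gene, the RARα-TG count was 5 higher (all genes 4.99% higher), since Oas3, Bst2, Rtp4, Ifi203, Stat2 and Gbp2 lost the call. Within the hashtag limit it was 10 (8.38%).

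In Foxp3- CD4 T cells, 25 members passed for RARα-KO, with 4 higher and 1 lower (all genes 3.13% and 5.77%). Ifi214 led with a ratio of 2.33 from 2 WT and 20 RARα-KO UMIs, followed by Ifi206 (1.59, not called), Ifit1 (1.16) and Igtp (0.76), and Irf9 (-0.66), Eif2ak2 (-0.64), Stat2 (-0.46) and Ifi203 (-0.39) were lowest, of which only Irf9 was called. The RARα-TG comparison had 20 members with 0 higher and 8 lower (4.11% and 4.52%). Gbp2 (0.05), Gbp3 (-0.01), Ifi209 (-0.06) and Ifih1 (-0.11) were highest and not called. Rtp4 (-1.32), Xaf1 (-1.31) and Bst2 (-1.26) were called lower, and Stat2 (-1.11) was not. Within the hashtag limit the RARα-KO counts were 8 higher and 0 lower (all genes 3.54% and 5.73%), with Ddx58, Zbp1, Rtp4 and Isg15 new and Irf9 lost. The RARα-TG counts were 2 higher and 4 lower (4.47% and 4.87%), where Isg15 (0.66) and Gbp2 (1.22) were then higher. Igtp, at 268.2, 453.6 and 166.2 CPM, was above WT in RARα-KO and below it in RARα-TG.

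In Tregs, 22 members passed for RARα-KO, with 3 higher and 1 lower (3.35% and 3.69%), a share of lower genes near that of all genes. The higher members were Oas1a (0.93), Bst2 (0.59) and Iigp1 (0.59), with Ifit1 (0.54, not called) next, and the lower was Stat2 (-1.65), followed by Herc6 (-0.63), Ifi203 (-0.60) and Rtp4 (-0.53), which were not called. For RARα-TG, 17 of 23 members were lower and 0 higher (5.60% of all genes higher, 4.33% lower), and each of the 23 had a ratio below 0. Rtp4 (-3.07), Iigp1 (-2.88), Ifit1 (-1.95) and Zbp1 (-1.29) were lowest. Irf9 (-0.40), Ifi203 (-0.49), Herc6 (-0.54) and Gbp3 (-0.56) were closest to WT and not called. Within the hashtag limit 12 members were lower and 0 higher in RARα-TG (4.6% of all genes lower, 5.5% higher). The RARα-KO counts were then 3 higher and 1 lower (3.2% and 3.8%). Tregs of RARα-TG thus had a lower share of GTPase, sensor and effector RNA alike.

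In macrophages, 36 members passed for RARα-KO, with 8 higher and 5 lower (6.47% and 5.70%). Iigp1 (1.47), Isg20 (1.43), Isg15 (1.24) and Ifi206 (1.13) were highest, and Ifit3b (-3.57), Ifit1 (-1.62), Ifit3 (-1.28) and Usp18 (-1.06) lowest. Without the top cell of each gene the counts were 12 higher and 0 lower (all genes 7.74% and 4.04%). Ifit1, Ifit2, Ifit3, Ifit3b and Usp18 then lost their calls and Rsad2, Bst2, Gbp2 and Igtp gained them. For RARα-TG, 27 of 30 members were lower and 0 higher (8.95% of all genes lower, 6.90% higher). Without the top cells the counts were the same (11.3% lower, 5.18% higher). Igtp (-4.73, from 1 UMI in RARα-TG), Irf1 (-4.36), Rsad2 (at most -3.93) and Ifi213 (-3.63, from 1 UMI) were lowest, and Xaf1 (-0.07), Oas1a (-0.64), Bst2 (-1.02) and Isg15 (-1.06) highest. The hashtag limit left 22 WT macrophages and so fewer than the minimum for a call. Within it, 17 members would pass as higher and 0 as lower in RARα-KO (all genes 9.6% and 8.5%). In RARα-TG, 10 of 13 members with enough UMIs would pass as lower (8.4%). Isg15 then had a RARα-TG ratio of -0.31 (-0.73 to 0.12). A ratio given as at most sets a count of 0 to the upper limit of 3 UMIs.

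In MC38 or stromal cells, 30 of 37 members were higher in RARα-KO and 0 lower, with 4.46% and 2.35% of all genes. Ifi206 (2.22), Rsad2 (1.86), Oas2 (1.83) and Cmpk2 (1.83) were highest, and Isg20 (-0.00), Oasl1 (0.36), Irf9 (0.41) and Ifi209 (0.45) lowest and not called. The count was also 30 and 0 without the top cells (all genes 3.6% and 3.0%). Within the hashtag limit it was 23 and 0 (3.5% and 2.6%), and the members that lost the call were Eif2ak2, Herc6, Ifi203, Gbp2, Gbp3, Gbp7 and Iigp1. Gbp2 then had 900.2 CPM in WT and 1121.9 in RARα-KO (log2 0.32). In the 21 WT and 26 RARα-KO dendritic cells, too few for calls, Oasl1 (2.21), Iigp1 (1.47), Bst2 (0.65) and Igtp (0.60) had the highest ratios and Irf9 (-0.72), Irf7 (-0.48), Gbp7 (-0.42) and Stat2 (-0.27) the lowest. No call was made for the 19 RARα-TG MC38 or stromal cells and the 4 RARα-TG dendritic cells either. In the former, Isg20 had the highest ratio (0.79) and Ifit3 (-4.84, from 1 UMI), Gbp2 (-3.54), Xaf1 (-2.72) and Gbp7 (-2.70) the lowest. In the latter, Ifi209 (0.66) was highest and Gbp2 (-2.59) lowest.

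**Figure D3:**
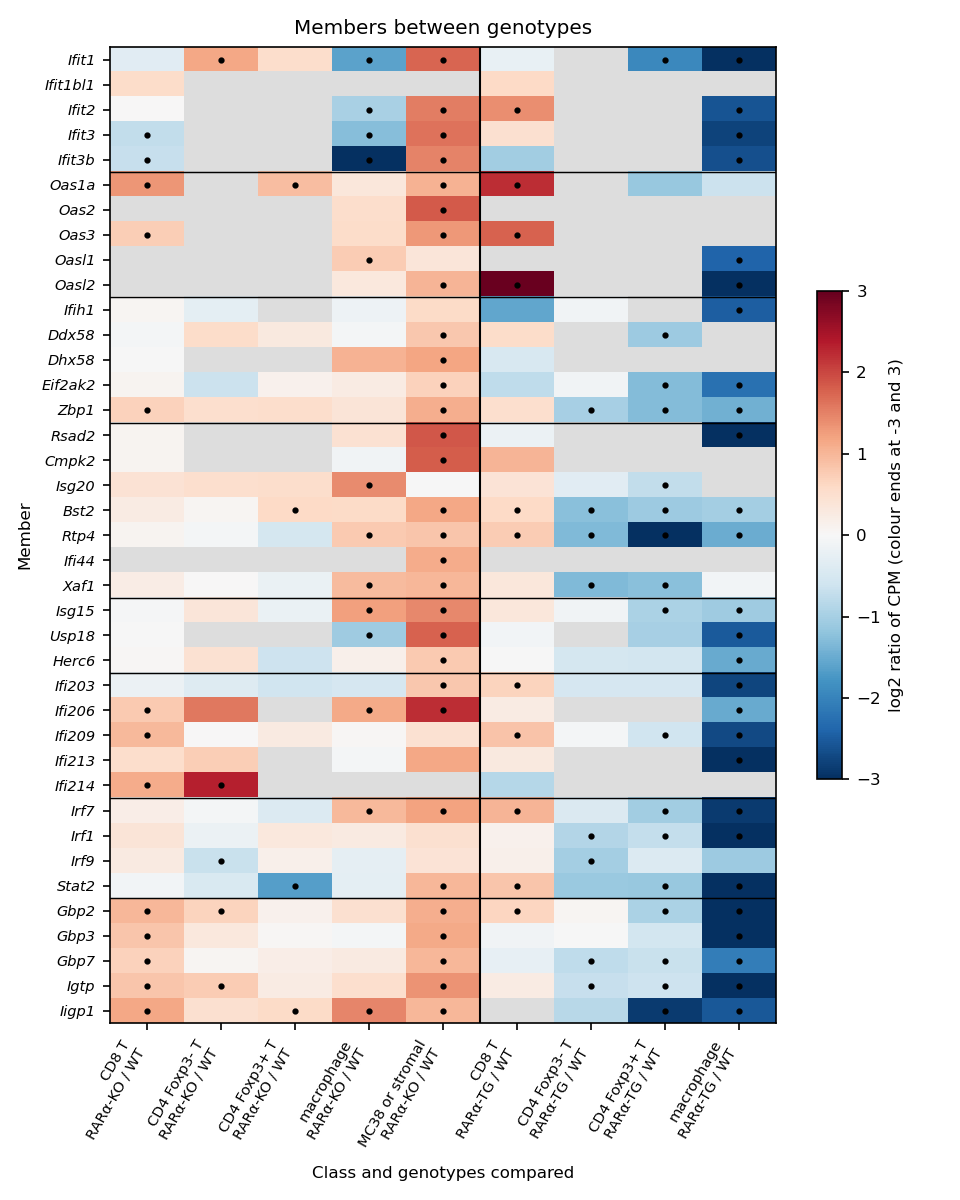
Log2 ratio of each member's CPM to WT in RARα-KO and RARα-TG, by class, with members grouped by role, grey where both genotypes together had under 20 UMIs, counts of 0 set to 3 UMIs, the colour scale ending at ±3 and a dot where the member was counted as higher or lower. The RARα-KO MC38 or stromal column has 30 dots for higher members, and the RARα-TG macrophage column 27 and the RARα-TG Treg column 17 for lower members.

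The genotypes differed in which CTL states they held, so CD8 T cells were compared within clusters, which had been made without members and other interferon pathway genes. Of WT CD8 T cells, 41.6% were in a cluster led by Gzmd, Gzme and Gzmf, granzymes of late effector cells, while 59.3% of the CTLs of RARα-TG and 30.6% of those of RARα-KO were in a cluster led by S1pr1, Cxcr3 and Gzmk. That cluster had the highest member sum of WT, at 2589.7 CPM, and 2883.6 in RARα-KO (log2 0.16), with 2277.3 in RARα-TG (log2 -0.19). The Gzmd cluster was lower, at 1054.9 CPM in WT and 1232.1 in RARα-KO (log2 0.22). The higher RARα-TG sum over all CTLs was therefore not seen within the cluster that held most of them. The cluster led by Xcl1, Ccl1 and Ifng had 1311.3 and 1722.6 CPM in WT and RARα-KO (log2 0.39). A cluster led by histone genes had 1117.2 and 1842.0 CPM (log2 0.72), and a cluster led by Prf1, Ccl5 and Serpine2 had 1513.8 and 1649.9 CPM (log2 0.12, -0.05 to 0.30). The RARα-KO level was thus above WT in each of these 5 clusters, in the last by less than its counting error. In a cluster led by Klra1 and Klra7, which encode NK cell receptors, WT had 2386.8 CPM and RARα-TG 1472.1 (log2 -0.70). Without the Gzmd cluster, the RARα-KO ratio of CD8 T cells was 0.16 and the RARα-TG ratio 0.11.

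**Figure D4:**
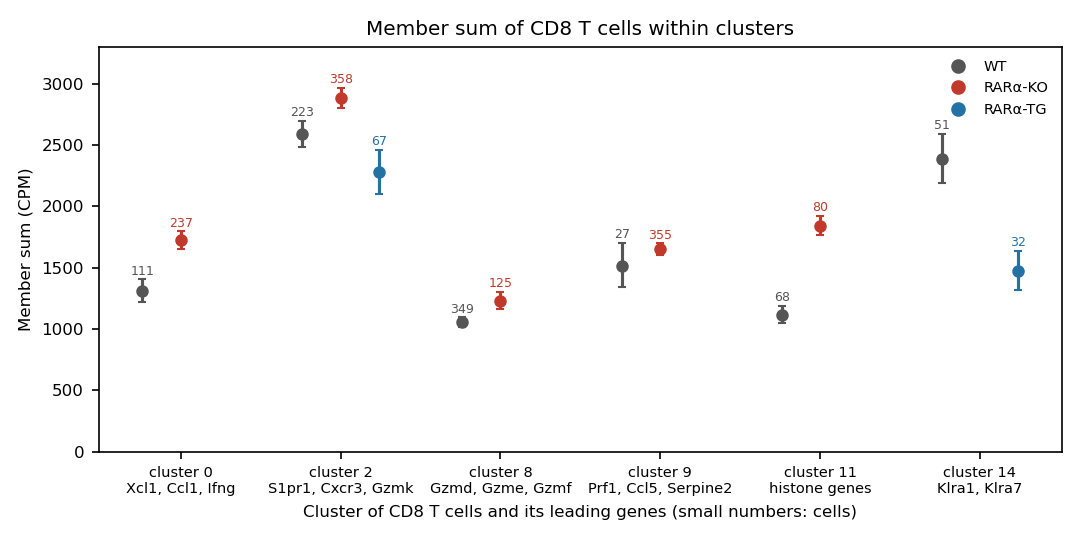
Member sum in CPM with exact Poisson 95% intervals in CD8 T cells of each cluster, by genotype, the clusters named by their leading genes. The S1pr1, Cxcr3 and Gzmk cluster is at 2277.3 to 2883.6 CPM in the 3 genotypes and the Gzmd, Gzme and Gzmf cluster at 1054.9 CPM in WT.

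Paired T cell receptor sequences gave the clonotype of T cells, and in CD8 T cells of WT and RARα-KO the member sum was lower in expanded clones. WT CTLs whose clonotype was seen in 1 cell had 1716.6 CPM (120 cells), against 1345.0 in clonotypes of 10 or more cells (474 cells of 20 clonotypes). In RARα-KO the values were 2505.0 (91 cells) and 1862.4 CPM (675 cells of 24 clonotypes). The 81 RARα-TG cells whose clonotype was seen in 1 cell had 1916.4 CPM. Foxp3- CD4 T cells of RARα-KO had the opposite order, with 2846.2 CPM in clonotypes of 1 cell (56 cells) and 3507.5 in those of 10 or more (32 cells of 3 clonotypes). Those of WT had the CD8 order, with 2362.7 and 1608.7 CPM (14 cells of 1 clonotype in the latter). Those of RARα-TG did too, with 1600.2 and 832.9 CPM (10 cells of 3 clonotypes). RARα-TG Tregs had 2512.8 and 1452.4 CPM (24 cells of 3 clonotypes), again the CD8 order. Cells of a clonotype share their origin and are not replicates.

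T cell classes were compared within the 3 genotypes, which here served as the replicates, by edgeR's quasi-likelihood test with Benjamini-Hochberg adjustment over all genes and genotype as a block. The 3 genotypes stand for 3 mice or pools of mice and carry different Rara alleles. In Tregs against Foxp3- CD4 T cells, 22 members were tested, 9 were higher and 0 lower at an adjusted p under 0.05, where 8.38% of all genes were higher and 7.15% lower. The largest differences were those of Iigp1 (log2 2.11 ± 0.25 SE, adjusted p 3.555e-06), Isg20, an exonuclease (1.36 ± 0.16, 3.555e-06), Gbp3 (1.36 ± 0.18, 1.197e-05), Gbp7 (1.24 ± 0.15, 3.175e-06) and Igtp (1.14 ± 0.14, 4.963e-06). All 5 GTPases of the set were thus higher in Tregs, Gbp2 included (0.91 ± 0.18). Irf1 (0.99 ± 0.14), Zbp1 and Bst2 also passed. Isg15 (0.44 ± 0.16, adjusted p 0.07296), Ifit1 (0.59, adjusted p 0.3418), Irf7 (-0.33, adjusted p 0.3568), Irf9 and Stat2 did not pass the edgeR test. The median over members was 0.46, against -0.02 over all genes. DESeq2 called 5 members and the edgeR fit without the genotype block 3.

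In CD8 T cells against Foxp3- CD4 T cells, 27 members were tested, 0 were higher and 3 lower, with 2.66% of all genes higher and 4.31% lower. The 3 were Iigp1 (-3.10 ± 0.37, adjusted p 0.0004322 by edgeR), Igtp (-1.04 ± 0.19, 0.008972) and Ifih1 (-1.49 ± 0.36, 0.03107). DESeq2 called 0 higher and 2 lower, and 6 members had an unadjusted p under 0.05 by edgeR. Ifit3 was 2.06 higher on the log2 scale and did not pass (adjusted p 0.06466). The count rested on the libraries compared, since without the WT pair it was 0 and without the RARα-TG pair 7, of which 2 were higher and 5 lower. The block left few residual degrees of freedom with 3 genotypes.

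**Figure D5:**
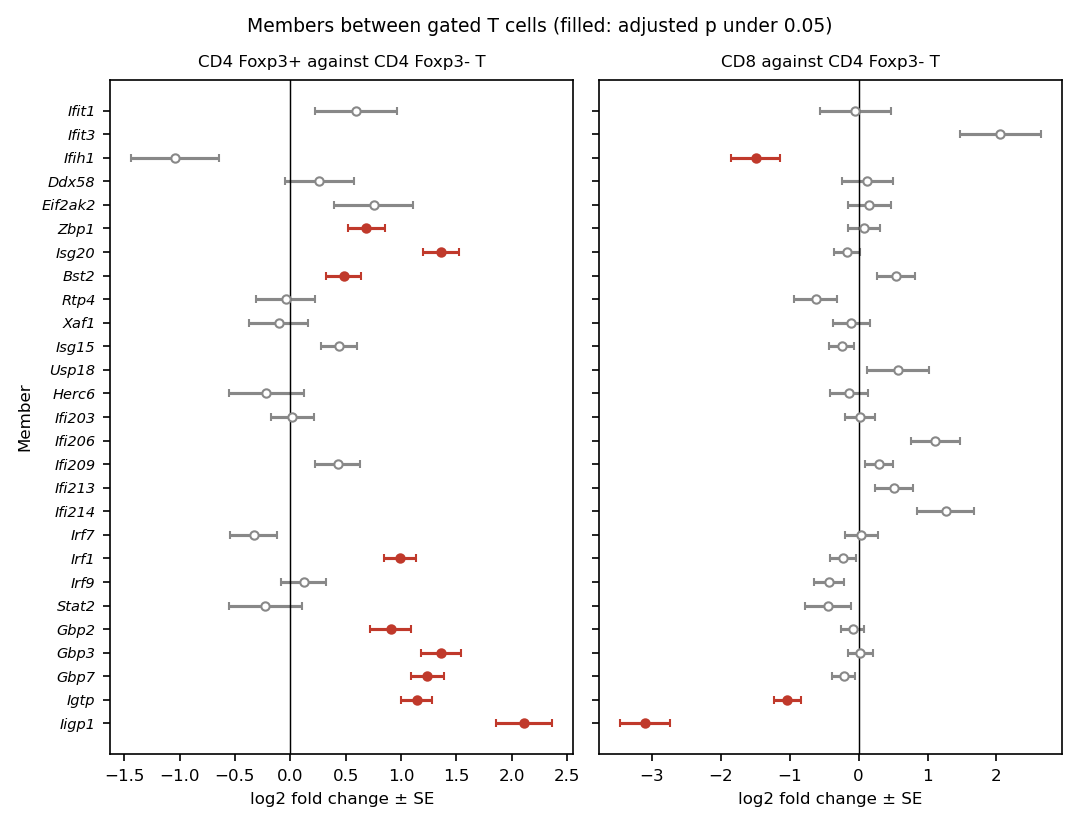
Log2 difference ± SE of each tested member between T cell classes within genotypes (edgeR, 3 genotypes), for Tregs and for CD8 T cells against Foxp3- CD4 T cells, with filled red points at an adjusted p under 0.05. The 9 filled points of Tregs include the 5 GTPases, and the 3 of CD8 T cells are Iigp1, Igtp and Ifih1, all below 0.

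The other genes of the interferon pathway were read from lists chosen by function. Of 21 interferon ligands, Ifng alone had 20 or more UMIs in any of these comparisons. It was at 116.3, 396.7 and 31.5 CPM in the CD8 T cells of WT, RARα-KO and RARα-TG, log2 ratios of 1.77 and -1.88, and at 547.8, 134.8 and 302.9 CPM in Foxp3- CD4 T cells. In CD8 T cells, Ifng thus had RARα-KO above WT and WT above RARα-TG. Over all cells, this was the order of the member sum in each of the other 5 classes and not that of CD8 T cells themselves. Within the hashtag limit dendritic cells did not keep it, at 4420.0 CPM in WT and 4309.6 in RARα-KO. In Foxp3- CD4 T cells, Ifng itself was highest in WT. The genotypes are 3 samples, over which no relation was tested. In Tregs Ifng was 6.86 lower on the log2 scale than in Foxp3- CD4 T cells.

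Among the receptors, 5 of 6 had enough UMIs in most classes. Ifngr2, a chain of the interferon-γ receptor, had a CD8 log2 ratio of -1.80 in RARα-KO, called lower, and 1.36 in RARα-TG, called higher. Ifnar1 was called lower in RARα-TG macrophages (-1.07) and Ifnar2 higher in RARα-TG Foxp3- CD4 T cells (0.82). No other receptor was called. Jak2, a kinase bound to the interferon-γ receptor, was called higher in RARα-TG CD8 T cells (0.82) and lower in RARα-KO Tregs (-0.97) and macrophages (-0.65). Irf8, a factor of myeloid and effector T cells, was called lower in CD8 T cells of RARα-KO (-0.78) and RARα-TG (-2.29). Of 10 negative regulators of interferon signalling, 4 were called higher and 1 lower in RARα-TG CD8 T cells, with Socs3 at a ratio of 1.82, where 7.62% and 6.46% of all genes were called. None was called in RARα-KO CD8 T cells. Socs1, a feedback inhibitor of receptor-bound JAK kinases, was called lower in RARα-TG Foxp3- CD4 T cells (-0.97), Tregs (-1.09) and macrophages (-2.39), and its ratio in RARα-TG CD8 T cells was 0.38, not called.

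A list of 48 further response genes was counted in the same way. In RARα-KO MC38 or stromal cells 37 of 45 were higher and 1 lower (all genes 4.46% and 2.35%), and in RARα-TG macrophages 31 of 44 were lower and 0 higher (8.95% and 6.90%). In RARα-TG Tregs 21 of 39 were lower and 0 higher (4.33% and 5.60%), and in RARα-TG Foxp3- CD4 T cells 17 of 35 were lower and 1 higher (4.52% and 4.11%). The CD8 T cells had 4 higher and 4 lower of 45 in RARα-KO, against 4.81% and 4.84% of all genes, where the members had 11 and 2 of 35. Cxcl10 and Cxcl9, the chemokines that draw CXCR3+ T cells, were below WT in macrophages of both other genotypes, although the member sum was above WT in RARα-KO, at 1907.4, 527.5 and 0 CPM and at 531.1, 199.0 and 28.4 CPM. In MC38 or stromal cells Cxcl10 was at 635.4, 1168.3 and 66.7 CPM and Cxcl9 at 55.9, 37.6 and 0 CPM. Ifitm1 and Ifitm2, which block viral entry, were called lower in CD8 T cells of RARα-KO (-1.06 and -1.11) and RARα-TG (-2.21 and -2.27). In Tregs against Foxp3- CD4 T cells, 15 of 39 tested response genes were higher and 7 lower (all genes 8.38% and 7.15%), with Cxcl10 (1.99), Gbp5 (1.64) and Irgm2 (1.55) at the top and Ifitm1 (-3.75), Ifitm3 (-2.24) and Ifitm2 (-2.15) at the bottom.

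Across the 18 levels of 6 classes and 3 genotypes, 2735 genes outside the set were ranked by Spearman correlation with the member sum. The 5 most alike were Tapbp (0.81) and B2m (0.81), both of MHC class I presentation, Psma3 (0.78) and Psma5 (0.75), subunits of the proteasome, and Samhd1 (0.77), a nucleotide hydrolase. The levels come from 1 library and 3 samples, so the correlation is a description.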

How the data were processed

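Cells of MC38 tumors at day 16 were measured by 5 prime droplet RNA sequencing with hashtags and T cell receptor libraries, 1 sample per genotype. The authors deposited raw gene and hashtag UMI counts of all barcodes, made with Cell Ranger 6.1.0 against mm10 (GRCm38), as the submitters' processing notes list them, and clonotype tables. No normalisation was applied to these counts before deposit.

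From 730308 barcodes, 5585 were called cells (an expected number of 3000, then barcodes of 500 or more UMIs that differed from empty ones at a false discovery rate of 0.01), with a median of 4823 UMIs and 1829 genes. HTODemux (Seurat 5.3.0, quantile 0.99) gave 4925 singlets, 426 doublets and 234 negatives. Doublets and negatives were removed, and doublets within a genotype remain. Singlets held 17766060 (WT), 16191256 (RARα-KO) and 4011140 (RARα-TG) UMIs. Clusters (scanpy 1.11.5, 30 principal components, Leiden resolution 1) were made without members or pathway genes. Clusters in which 50% or more of the barcodes had a clonotype were T cell clusters, split by Cd8a, Cd4 and Foxp3 UMIs. Other clusters were named from fixed markers.

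UMIs were summed per class and genotype. Class comparisons used edgeR 4.0.16 (TMM, filterByExpr, genotype block) and, as an alternative, DESeq2 1.42.0. On simulated counts for Tregs against Foxp3- cells (6098 genes), 50 of 100 genes changed 2-fold and 100 of 100 changed 4-fold were called, and 40 and 97 of 100 for CD8 T cells (6838 genes). The changed genes were drawn only from genes with many UMIs, and no difference between genotypes was simulated. Recovery of members with few UMIs was therefore not measured. The same libraries cannot give genotype tests, since n was 1.

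The members, pathway lists and classes were chosen with earlier results of these data known, and leaving out top cells, or the cluster with 2 NK cell markers, and counting members within the hashtag limit were chosen after seeing the data. Named are, in each comparison, the 4 highest and 4 lowest members with 20 or more UMIs, the 2 members of each role with the most UMIs, the transcription factors, the 5 largest edgeR differences and the 5 genes most like the sum. Pathway genes are counted by list, and those with 20 or more UMIs may be named. Intervals and floors cover counting error only. Promoter and protein sequences were not used here.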

Additional observations from a re-analysis of the deposited data

Results flagged for a closer look

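The RARα-TG to WT log2 ratio of the member sum was 0.40 in CD8 T cells, opposite in sign to Foxp3- CD4 T cells (-0.65), Foxp3+ CD4 T cells (-0.89), macrophages (-2.25), dendritic cells (-0.88) and MC38 or stromal cells (-1.89). The difference between classes was not tested, as each genotype was 1 sample.

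A cluster outside the 6 classes, led by Siglech, a receptor of plasmacytoid dendritic cells, had member sums of 6939.2 CPM in 26 WT cells, 6952.7 in 9 RARα-KO cells and 5573.5 in 13 RARα-TG cells. Bst2, itself a marker of those cells, made up 4559.6, 5261.9 and 4431.4 CPM of these sums, and the IFIT family had 1 UMI in WT and 0 in the other genotypes.

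A neutrophil-like cluster, also outside the 6 classes, had member sums of 2571.7 CPM in 10 WT cells, 18347.2 CPM in 37 RARα-KO cells and 1041.1 CPM in 10 RARα-TG cells. They came from 51, 1410 and 18 member UMIs. The IFIT family had 0, 75 and 0 UMIs there and the GTPases were at 655.5, 2797.6 and 173.5 CPM.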

How the results depend on the processing

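Of the member sums recomputed under alternatives, 94 kept their direction and moved by less than the counting error, 39 moved by more and 1 reversed. The reversal was RARα-KO in dendritic cells, -0.036 among cells with 80% or more of 1 hashtag. Under that limit the RARα-KO log2 ratios were 0.47 (CD8), 0.59 (Foxp3- CD4), 0.30 (Tregs), 1.14 (macrophages) and 0.69 (MC38 or stromal). Those of RARα-TG were -0.30 (Foxp3- CD4), -0.79 (Tregs), -1.53 (macrophages), -1.32 (dendritic) and -2.24 (MC38 or stromal, from 8 RARα-TG cells). With cells thinned to 1000 UMIs the RARα-KO ratios were 0.35 (CD8), 0.039 (Tregs), 0.32 (macrophages), 0.048 (dendritic) and 1.08 (MC38 or stromal), and the RARα-TG ratios 0.29, -2.73, -1.52 and -2.34 in CD8 T cells, macrophages, dendritic and MC38 or stromal cells. With clonotypes weighted equally the RARα-KO ratios were 0.29 (CD8), 0.10 (Foxp3- CD4) and 0.028 (Tregs) and the RARα-TG CD8 ratio 0.22. T cells picked by their own clonotype gave 0.52 (RARα-KO CD8) and -0.80 (RARα-TG Tregs). Without the Gzmd cluster the CD8 ratios were 0.16 and 0.11, and without mitochondrial, ribosomal and T cell receptor genes the RARα-KO CD8 ratio was 0.35. Cells with few markers of another type gave 1.14 and -3.44 in MC38 or stromal cells, the latter from 16 RARα-TG cells. Without the member with the most UMIs, ratios were 0.34 and -2.63 in macrophages and -2.05 in RARα-TG MC38 or stromal cells. Chosen after seeing the data, leaving out the cell with the most member UMIs gave 0.61 and -2.52 in macrophages, -1.35 in RARα-TG dendritic and -2.35 in RARα-TG MC38 or stromal cells, and leaving out the cluster with 2 NK cell markers gave 0.44 and 0.63 in CD8 T cells. The causes were not tested.

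Of the member counts past 1.5-fold, 50 stayed within 1.5 times and 22 did not. At 2-fold the counts for RARα-KO and RARα-TG were 4 and 5 in CD8 T cells, all higher (all genes 2.12% and 4.11% higher). In Foxp3- CD4 T cells they were 2 higher and 4 lower (1.82% higher and 2.76% lower). In Tregs they were 1 and 10, all lower (2.07% and 2.47% lower). RARα-KO macrophages had 8, with 4 higher and 4 lower (4.30% and 3.12%). Thinning, which leaves fewer UMIs to pass the minimum, gave 7 and 1 in CD8 T cells, all higher (all genes 4.0% and 4.2% higher). Foxp3- CD4 T cells had 1 higher and 1 lower in RARα-KO (2.9% and 4.2%) and in RARα-TG (4.5% and 4.5%). Tregs had 1 and 6, all lower (4.2% and 4.4% lower). RARα-KO macrophages had 4 higher and 1 lower (5.7% and 5.1%) and RARα-TG macrophages 5 lower (11.3%). RARα-KO MC38 or stromal cells had 12 higher (3.9%). The members that passed the minimum after thinning were not counted. A minimum mean of 0.1 UMIs per cell gave 7 higher for RARα-TG CD8 T cells (all genes 7.47% higher). Leaving out the top cell of each gene, chosen after seeing the data, gave 5 higher there (4.99%). The hashtag limit, for counts chosen after seeing the data, gave 8 higher for RARα-KO Foxp3- CD4 T cells (all genes 3.54% higher). For RARα-TG macrophages the limit gave 10 lower (8.40% lower). Under it 2 role groups reversed, the transcription factors of RARα-KO Foxp3- CD4 T cells at 0.095 and the IFIT family of RARα-KO macrophages at 0.79. For RARα-KO Tregs leaving out top cells gave 2, with 1 higher and 1 lower (all genes 2.51% and 4.39%). Leaving out mitochondrial, ribosomal and T cell receptor genes also gave 1 higher and 1 lower (3.18% and 3.78%). Over all comparisons 110 of 128 calls held without the top cells and 18 were lost.

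Members called by edgeR in Tregs numbered 5 by DESeq2, 5 in thinned cells and 7 to 13 with each genotype left out in turn. For CD8 T cells they numbered 1 in thinned cells, 7 without the expression filter and 0 to 7 with a genotype left out, 0 without WT. With no replicate block, where genotypes no longer pair the classes, 3 members were called in Tregs and 1 in CD8 T cells. Each member called by edgeR was counted once for every alternative setting in which it was tested. Of these 81 results, 54 kept the call and 27 lost it. No paired analysis was possible between genotypes because each was 1 sample. The number of cells limits the RARα-TG values of 35 macrophages, 19 MC38 or stromal cells and 4 dendritic cells.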
